A study of Mus musculus with 10 samples.

Results

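The 2′-5′-oligoadenylate synthetase (Oas) family of the mouse was examined in bulk RNA-seq of peritoneal macrophages. The family was defined by gene identity: the rows of the deposited count table whose NCBI gene identifiers pair with the symbols Oas1a, Oas1b, Oas1c, Oas1g, Oas2, Oas3, Oasl1 and Oasl2. These were 8 genes among 29700 rows that are not circular RNAs, and the rule itself used no expression value. The family was, however, chosen with earlier results of these data known. All 8 passed the filter on low counts and were among the 12654 genes tested.

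Oas enzymes bind double-stranded RNA in the cytosol and then join ATP into short 2′-5′-linked oligoadenylates (2-5A), a signal that leads to the decay of cellular and viral RNA. Most genes of the family are interferon-stimulated genes, transcribed when the interferon-activated factor ISGF3 binds an interferon-stimulated response element (ISRE) near their start. In macrophages, LPS can drive the same genes through TLR4, the adaptor TRIF and secreted interferon-β.

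Macrophages were elicited with thioglycollate and collected from the peritoneal cavity of C57BL/6 mice aged 8 weeks, the genotype and age that every sample label gives. The 5 control libraries came from cells labelled untreated, and the 5 ox-LDL libraries from cells given LPS at 100 ng/ml as priming and then oxidized low-density lipoprotein (ox-LDL), the modified lipoprotein of atherosclerotic plaques, at 100 µg/ml for 16 h. By these labels no group received LPS alone or ox-LDL alone, so the effects of the 2 agents cannot be told apart. The study's figure legend can be read as priming of the control cells too, in which case the controls had LPS alone. The protocol text of the samples names 16 h of ox-LDL for every sample, and the treatment label was followed here. The sources used here do not say whether the 5 libraries of a group came from separate mice or cultures, so p-values measure only the spread between these libraries, which may be technical.

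Total counts were 20094647 to 20687289 in control and 19257131 to 20358017 in ox-LDL libraries. Levels are given as CPM, counts scaled to a common library total after TMM normalization, which corrects for a few abundant genes taking a large share of a library, or as FPKM, the deposited value scaled by library total and by transcript length. TMM factors were between 0.916 and 1.19 except in ox-LDL replicates 2 (0.593) and 5 (0.837). In nearly every library genes deviated from their group mean with transcript length. The Spearman correlation over 12529 genes was −0.60, 0.48, 0.49, −0.49 and 0.37 in control replicates 1 to 5 and 0.34, −0.66, 0.52, 0.54 and 0.06 in ox-LDL replicates 1 to 5, so that control replicates 1 and 4 and ox-LDL replicate 2 ran opposite to the others. The macrophage markers Adgre1, Cd68, Csf1r and Lyz2 were abundant in every library, and the T cell markers Cd3e and Cd3g had at most 3 counts anywhere. The summed level of all 8 macrophage markers, by library size alone, was 23200 to 42900 CPM in control and 13380 to 28400 CPM in ox-LDL libraries. Of the 8, Adgre1 (log2 fold change 2.07, adjusted p = 0.000287, edgeR) and Cd14 were called higher and none lower, at an adjusted p below 0.01. Of all genes tested, 9.4% were called higher and 5.35% lower. Negative estimates were those of Itgam (−0.78, adjusted p = 0.141, edgeR) and Lyz2 (−0.67, adjusted p = 0.371).

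In the ox-LDL group, 6 of the 8 genes were significantly upregulated: Oas1a, Oas1g, Oas2, Oas3, Oasl1 and Oasl2. An adjusted p below 0.01 in edgeR's quasi-likelihood test was the criterion, which 9.4% of all genes tested met in the upward direction. None of the 8 was called lower, where 5.35% of all genes were. The same 0 was returned by DESeq2 and by limma-voom, although Oas1c had an unadjusted p below 0.05 in each of the 3 tests. The percentage called lower rested on single libraries: 677 genes were called with all libraries, 1502 without ox-LDL replicate 2, 436 without control replicate 4 and 437 without ox-LDL replicate 3. Over all genes, 1189 were called higher and 677 lower. Scaling by library size alone gave 704 higher and 583 lower, and limma on log2(FPKM + 1), in which the test and the filter differ as well, gave 555 higher and 750 lower. The median log2 fold change was 2.11 over the 8 genes and 0.10 over all genes. The same 6 genes had no overlap in CPM between the groups, a pattern that 11.6% of all genes showed in the upward direction. No member was lower without overlap, where 9.11% of all genes were. Of the 6 genes, 4 (Oas1g, Oas3, Oasl1 and Oasl2) also had a log2 fold change above 2, a combination that 4.78% of all genes met. In bulk RNA, fewer cells carrying a transcript and less transcript per cell cannot be told apart.

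**Figure D1:**
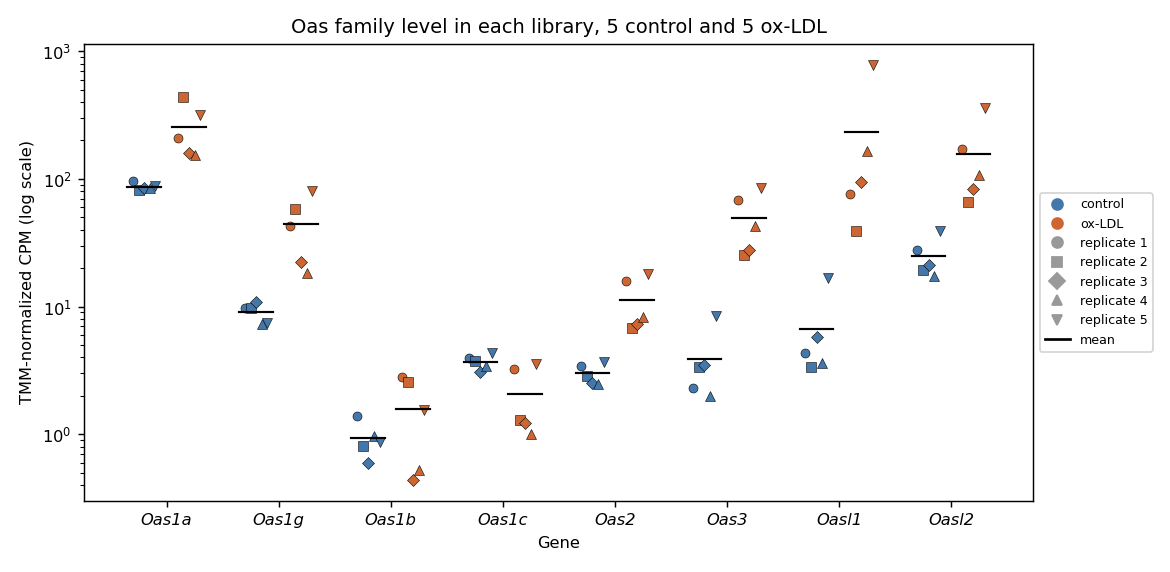
TMM-normalized CPM (log scale) of the 8 Oas family genes in the 5 control (blue) and 5 ox-LDL (orange) libraries; marker shape gives the replicate number and the black line the group mean. Oas1a, Oas1g, Oas2, Oas3, Oasl1 and Oasl2 have every ox-LDL library above every control library, whereas the groups overlap for Oas1b and Oas1c.

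The genes lie in 2 groups on chromosome 5 (build NCBIM37, which is mm9, GENCODE annotation). A cluster of 10 genes, the 8 Oas1 genes with Oas2 and Oas3, spans chr5:121180342-121371661 (191320 bases). The pair Oasl2 and Oasl1 spans chr5:115346943-115387924, which is 5792417 bases away. Both groups of genes held upregulated members.

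Oas1a (NCBI gene 246730, chr5:121346265-121357536, minus strand) and Oas1g (23960, chr5:121326151-121337622, minus strand) are the Oas1 copies of the mouse known to have synthetase activity. The 120 bases before their RefSeq starts are shown because the copies resemble each other there and hold an ISRE core in the same place. The RefSeq promoter windows were matched exactly to NCBIM37, at chr5:121357535-121357654 for Oas1a and chr5:121337623-121337742 for Oas1g, and are written on the minus strand with each match to GAAANNGAAA, the core of the ISRE, in capitals.
Oas1a: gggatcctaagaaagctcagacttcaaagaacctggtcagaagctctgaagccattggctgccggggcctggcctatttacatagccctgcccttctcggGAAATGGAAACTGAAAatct
Oas1g: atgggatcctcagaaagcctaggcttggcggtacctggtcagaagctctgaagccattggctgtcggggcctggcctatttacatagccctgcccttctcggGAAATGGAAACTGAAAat
Each stretch of capitals holds 2 overlapping cores, from 20 to 5 bases before the RefSeq start in Oas1a and from 18 to 3 in Oas1g. The stretch of Oas1a reaches into the GENCODE gene, whose start is at 121357536, and that of Oas1g does not. The difference in these distances therefore depends on the start used. Shifted by 2 bases, the stretches were identical at 108 of 118 positions (91.5%).

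Oas1a was the most abundant member in both groups. Its CPM was 96.4, 81.4, 85.2, 84.6 and 88.4 in control replicates 1 to 5 and 209, 439, 159, 154 and 316 in ox-LDL replicates 1 to 5. The control libraries were nearly level, with the highest 1.19 times the lowest, whereas the ox-LDL libraries spread over 2.86-fold and were all above the controls. The mean rose from 87.2 ± 5.73 to 256 ± 122 CPM (SD, n = 5), a log2 fold change of 1.55 ± 0.29 (SE; adjusted p = 0.00233, edgeR). By library size alone, the CPM of Oas1a was 249.5, 260.4, 170.3, 170.9 and 264.8 in ox-LDL replicates 1 to 5. Replicate 2 was thus the highest only after TMM normalization, and the ox-LDL libraries were less spread before it. Without ox-LDL replicate 2 the log2 fold change was 1.23, and without ox-LDL replicates 2 and 5 together it was 0.95 (adjusted p = 0.000693, edgeR).

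Oas1g was lower than Oas1a and changed by a larger factor. In control replicates 1 to 5 its CPM was 9.74, 9.76, 10.9, 7.26 and 7.47, and in ox-LDL replicates 1 to 5 it was 42.7, 58.1, 22.4, 18.5 and 80.4. The lowest ox-LDL library, replicate 4, was above the highest control library, replicate 3. The log2 fold change was 2.30 ± 0.38 (adjusted p = 0.000943, edgeR), and 1.58 without ox-LDL replicates 2 and 5 (adjusted p = 0.00107).

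Reads of these genes are partly shared. Of all 50-base windows of the Oas1a transcript, 57.1% occur in an Oas1g transcript, and of those of Oas1g 54.0% occur in Oas1a. With 100-base windows the shares were 40.5% and 38.3%. How such reads were divided between the copies is not given in the sources used here, which leaves the values of both uncertain. The decimals in the deposited counts do not settle it: counts were not whole in any of the 10 libraries for Oas1a, Oas1g or Oasl2 and in 6 of 10 for Oas2, and Oasl2 and Oas2 share no 50-base window with another Oas gene. Summed into 1 row, Oas1a and Oas1g had a log2 fold change of 1.64 ± 0.30 (adjusted p = 0.00189, edgeR).

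Oas2 (246728, chr5:121180342-121199862, minus strand) and Oas3 (246727, chr5:121203107-121227670, minus strand) encode the larger synthetases, built from repeated synthetase units, of which Oas3 is the longest. Oas2 was at 3.43, 2.87, 2.52, 2.47 and 3.69 CPM in control replicates 1 to 5 and at 16, 6.76, 7.36, 8.33 and 18.1 CPM in ox-LDL replicates 1 to 5. Its ox-LDL libraries formed a low set, replicates 2 to 4, and a high set, replicates 1 and 5, all above the controls. The mean CPM went from 3.00 ± 0.54 to 11.3 ± 5.32, a log2 fold change of 1.92 ± 0.31 (adjusted p = 0.000943, edgeR).

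Oas3 was near Oas2 in the controls and far above it after treatment. The CPM of Oas3 was 2.32, 3.38, 3.51, 2.01 and 8.38 in control replicates 1 to 5 and 68.9, 25.2, 27.5, 43.1 and 84.3 in ox-LDL replicates 1 to 5. Control replicate 5 was 2.99 times the mean of the other controls and still below every ox-LDL library. The log2 fold change was 3.66 ± 0.48 (12.6-fold; adjusted p = 0.000237, edgeR), and 4.14 without control replicate 5.

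The 120 bases before the RefSeq start of Oas3 (chr5:121227669-121227788, minus strand) are shown for comparison with the Oas1 copies. They too reach into the GENCODE gene. The stretch holds 1 ISRE core, in capitals, 75 to 66 bases before the RefSeq start, farther out than in Oas1a and Oas1g.
Oas3: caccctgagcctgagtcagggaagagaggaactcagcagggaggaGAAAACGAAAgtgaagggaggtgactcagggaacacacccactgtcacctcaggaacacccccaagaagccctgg

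Oasl1 (231655, chr5:115373249-115387924, plus strand) and Oasl2 (23962, chr5:115346943-115362243, plus strand) encode Oas-like proteins with ubiquitin-like domains. Oasl2 keeps synthetase activity, whereas Oasl1 lacks it and is known to repress translation of Irf7, a factor that drives interferon genes. Oasl1 had the largest fold change and the widest spread of the family. Its CPM was 4.37, 3.34, 5.73, 3.61 and 16.6 in control replicates 1 to 5 and 76.0, 39.1, 94.9, 166 and 783 in ox-LDL replicates 1 to 5. The ox-LDL libraries differed 20.01-fold among themselves, from replicate 2 to replicate 5, and the controls 4.98-fold, from replicate 2 to replicate 5. Even so the lowest ox-LDL library was above the highest control library.

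The log2 fold change of Oasl1 was 5.10 ± 0.89 (34.3-fold; adjusted p = 0.00146, edgeR). It rested in part on single libraries. Without ox-LDL replicate 5, which was 8.34 times the mean of the other 4 ox-LDL libraries, it was 3.78 (adjusted p = 0.00108), and without control replicate 5 it was 5.76 (adjusted p = 0.00154). Without any filter on low counts the log2 fold change was 5.05 and the adjusted p 0.0161, above the threshold. Gm13822 overlaps Oasl1 on the opposite strand, and because the use of strand in counting is not given in the sources used here, reads of these genes cannot be told apart.

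Oasl2 was at 27.6, 19.4, 21.1, 17.3 and 39.2 CPM in control replicates 1 to 5 and at 171, 65.6, 83.3, 107 and 359 CPM in ox-LDL replicates 1 to 5. Its highest library was replicate 5 in both groups. The mean rose from 24.9 ± 8.84 to 157 ± 120 CPM, a log2 fold change of 2.66 ± 0.46 (6.31-fold; adjusted p = 0.00135, edgeR). Leaving out ox-LDL replicate 5 gave 2.08 (adjusted p = 0.00119).

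The stretch before Oasl1 (chr5:115373129-115373248, plus strand) is shown because the gene with the largest change held none of the motifs searched in its window.
Oasl1: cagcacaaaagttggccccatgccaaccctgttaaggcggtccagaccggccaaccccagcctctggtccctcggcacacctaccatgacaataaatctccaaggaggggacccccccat

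The remaining members, Oas1b and Oas1c, did not pass the test. Oas1b (23961, chr5:121262644-121274186, plus strand) is the flavivirus resistance gene, whose C57BL/6 allele carries a premature stop codon, and RefSeq lists it as a transcribed pseudogene. Oas1c (114643, chr5:121250102-121262523, minus strand) encodes a protein without synthetase activity. Both were scarce, with 14 to 25 counts in control and 9 to 65 in ox-LDL libraries for Oas1b, and 67 to 99 and 15 to 75 counts for Oas1c.

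Oas1b was at 1.38, 0.813, 0.599, 0.979 and 0.869 CPM in control replicates 1 to 5 and at 2.83, 2.57, 0.439, 0.526 and 1.55 CPM in ox-LDL replicates 1 to 5. In the ox-LDL group replicates 1, 2 and 5 were above every control library, and replicates 3 and 4 below every control library. Its log2 fold change was 0.76 ± 0.52 (adjusted p = 0.305, edgeR).

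Oas1c was the only member with a negative estimate. It was at 3.93, 3.72, 3.08, 3.45 and 4.30 CPM in control replicates 1 to 5 and at 3.26, 1.28, 1.22, 1.01 and 3.52 CPM in ox-LDL replicates 1 to 5. Replicates 2, 3 and 4 of the ox-LDL group were below every control library, and replicates 1 and 5 lay within the control range. The log2 fold change was −0.84 ± 0.37 (adjusted p = 0.12, edgeR).

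Oas1b and Oas1c stand head to head, with 120 bases between their starts (chr5:121262524-121262643). This stretch is shown because it is shared by the members that were not called. It is written on the strand of Oas1c.
Oas1c: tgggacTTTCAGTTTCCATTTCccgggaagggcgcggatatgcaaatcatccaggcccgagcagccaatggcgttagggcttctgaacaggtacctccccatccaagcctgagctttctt
The capitals mark 2 overlapping ISRE cores read on the opposite strand, that of Oas1b. They begin 114 bases before the start of Oas1c and end 6 and 12 bases from the start of Oas1b.

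The motifs were counted on both strands of the RefSeq windows, from 250 bases before to 50 bases after each start. Windows were matched for 6 of the 8 members, all except Oas1b and Oas2. The ISRE core GAAANNGAAA was in the windows of Oas1a, Oas1g, Oas3 and Oas1c and in 3.44% of all 32851 windows. The windows of Oasl1 and Oasl2, which were upregulated, held none, as did those of Oas1f and Oas1h, which were hardly detected. The core TTCNNNGAA of the gamma-activated sequence (GAS) occurred in 1 place, 98 to 90 bases before Oas1a, and in 8.3% of all windows. TATAAA occurred upstream of Oasl2 alone among the members, 187 to 182 bases before the start on the other strand, and in 13.6% of all windows. Within these 6 genes, holding an ISRE core therefore did not separate the upregulated genes from Oas1c. A match describes letters in a window, not binding.

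**Figure D2:**
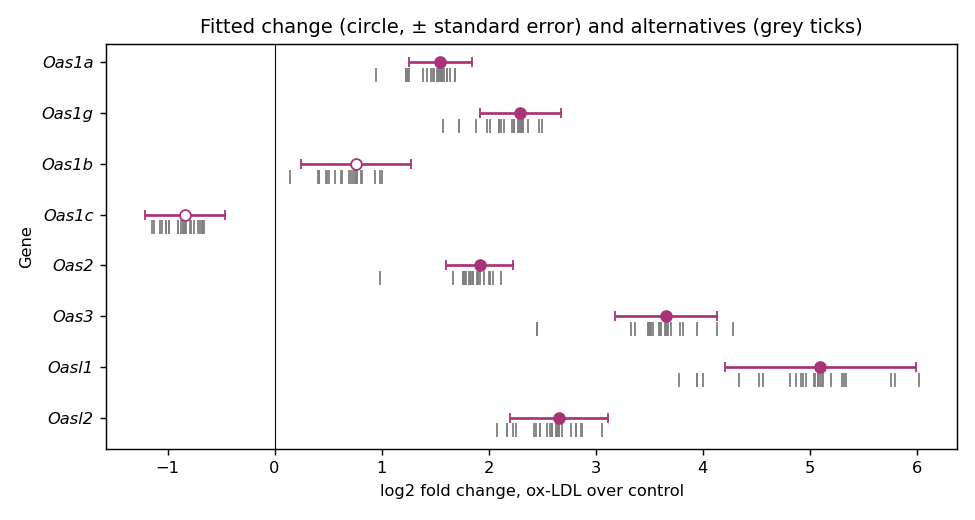
Log2 fold change of each Oas family gene, ox-LDL over control; circles and bars give the edgeR estimate ± SE (filled, adjusted p below 0.01; open, not past it) and grey ticks the estimates under the other analysis settings. Every tick of Oas1c lies below 0 and those of the other 7 genes above it, with the widest range for Oasl1 (3.78 to 6.02).

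The 6 upregulated genes kept their direction under every setting tried, in 24 to 27 settings per gene. The separation of the groups depended more on the scaling. With CPM scaled by library size alone, Oas1a, Oas1g, Oas3 and Oasl1 had no overlap, a pattern of 6.17% of all genes, and Oas2 and Oasl2 overlapped because ox-LDL replicate 2 fell below control replicate 5 (4.01 against 4.26 CPM for Oas2 and 38.9 against 45.2 CPM for Oasl2). With deposited FPKM, 5 genes had no overlap, all of the 6 but Oasl2, where 6.18% of all genes had none.

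Levels of different genes were compared per length, as FPKM. In the control group the order of the means was Oas1a (66.3 ± 5.02 FPKM), Oasl2 (11.2 ± 4.45), Oas1g (5.17 ± 1.2), Oasl1 (3.61 ± 3.28), Oas1c (2.17 ± 0.32), Oas3 (0.948 ± 0.679), Oas2 (0.742 ± 0.156) and Oas1b (0.682 ± 0.164). Among neighbours in this order, Oas1a and Oasl2, and Oasl2 and Oas1g, had ranges that did not overlap. Oas1c was above Oas3 in 5 of 5 libraries, although their ranges overlapped. Oasl1 was above Oas1c in 2 of 5 libraries and Oas3 above Oas2 in 3 of 5, so these neighbours did not differ beyond their spread.

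In the ox-LDL group the FPKM order was Oas1a (159 ± 34.7), Oasl1 (104 ± 125), Oasl2 (63.2 ± 42.3), Oas1g (20.9 ± 10.4), Oas3 (10.7 ± 6.07), Oas2 (2.69 ± 1.52), Oas1c (1.09 ± 0.75) and Oas1b (0.948 ± 0.707). Oasl1, Oas3 and Oas2 ranked higher than in the control group, and Oasl2, Oas1g and Oas1c lower. The size of the lead of Oasl1 over Oasl2 rested on ox-LDL replicate 5, since by the median Oasl1 (50.9 FPKM) was level with Oasl2 (51.6 FPKM). Oasl1 was above Oasl2 in 3 of 5 libraries. No neighbours had ranges apart, but Oas1g was above Oas3, Oas3 above Oas2 and Oas2 above Oas1c in 5 of 5 libraries each. Oasl1 was above Oas1a in 1 library, replicate 5, at 323 against 189 FPKM.

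The summed level of the family was higher in the ox-LDL group, and in most ox-LDL libraries its make-up differed from that of the controls. The summed FPKM of the 8 genes was 90.7 ± 13.0 in the control group (75.9 to 110.0) and 363 ± 192 in the ox-LDL group (231 to 692). Oas1a held 74.6%, 75.4%, 74.5%, 79.1% and 64.5% of this sum in control replicates 1 to 5 and 48.9%, 78.3%, 52.1%, 42.2% and 27.3% in ox-LDL replicates 1 to 5. In ox-LDL replicate 2 the share of Oas1a was within the control range, and in the other 4 ox-LDL libraries it was below that range.

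The share of Oasl1 was above every control library in 4 of 5 ox-LDL libraries. It was 2.21%, 2.12%, 3.41%, 2.27% and 8.51% in control replicates 1 to 5 and 12.4%, 4.76%, 22.0%, 31.5% and 46.6% in ox-LDL replicates 1 to 5. In ox-LDL replicate 5 Oasl1, a protein without synthetase activity, supplied more of the summed FPKM than any other member. Oas1g held 5.73% ± 1.23 in control and 5.91% ± 1.64 in ox-LDL libraries, a difference smaller than the spread between libraries. Oas1c held 2.40% ± 0.19 of the sum in control and 0.303% ± 0.176 in ox-LDL libraries.

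**Figure D3:**
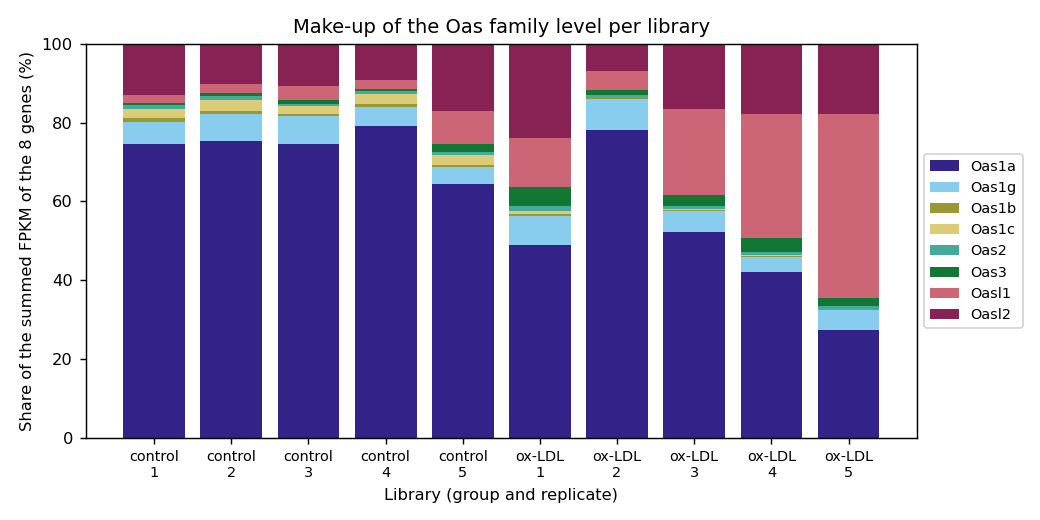
Share of each gene (%) in the summed FPKM of the 8 Oas family genes, stacked to 100% for each of the 5 control and 5 ox-LDL libraries. Oas1a holds 64.5% to 79.1% of the sum in control libraries and 27.3% to 78.3% in ox-LDL libraries, where Oasl1 reaches 46.6% in replicate 5.

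Within the groups the genes varied together in some libraries and apart in others. Deviations were taken on the log2(CPM + 1) scale from the mean of the library's own group. In ox-LDL replicate 5 all 8 genes were above their group mean (median deviation 0.82), and in ox-LDL replicate 3 all 8 were below (−0.59). Ox-LDL replicate 2 split the family: Oas1a (0.90), Oas1b (0.58) and Oas1g (0.58) were above their group means and Oasl1 (−1.71), Oasl2 (−0.97), Oas3 (−0.80), Oas2 (−0.56) and Oas1c (−0.33) below. This is the library with the lowest TMM factor and the strongest trend on transcript length, and the transcript lengths behind the FPKM values were 1378 to 1848 bases for those above and 1805 to 4508 bases for those below. The split depended on the scaling: by deposited FPKM, Oas1g in this library (18.2) was below its group mean (20.9). Oas1a (186 against 159 FPKM) and Oas1b (1.26 against 0.948 FPKM) stayed above theirs. The part of length in this split was not tested for single libraries. With each library's length trend removed, the log2 fold changes were 1.57 for Oas1a, 1.79 for Oas2, 3.53 for Oas3, 5.12 for Oasl1 and 2.65 for Oasl2.

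In the control group, replicate 5 stood above its group in Oasl1 (1.41), Oas3 (1.06) and Oasl2 (0.69), and in Oas1a and Oas1b it lay at the group mean (0.02 and −0.03). Irf7 was high in the same library, at 66.3 CPM against 8.39 to 17.9 CPM in the other controls. By coefficient of variation, the control libraries spread most in Oasl1 (83.3%), Oas3 (65.8%) and Oasl2 (35.5%), the genes with the 3 largest log2 fold changes.

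After the group means were removed, the Pearson correlation of each member with the mean of the other members over the 10 libraries was 0.92 for Oasl2, 0.88 for Oas2, 0.86 for Oas1c, 0.77 for Oas3, 0.57 for Oas1g, 0.55 for Oasl1, 0.30 for Oas1b and 0.29 for Oas1a. These are descriptions over libraries that share scaling and length trends. Oas1c, whose level went down on average, correlated at −0.40 with the others before the group means were removed.

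**Figure D4:**
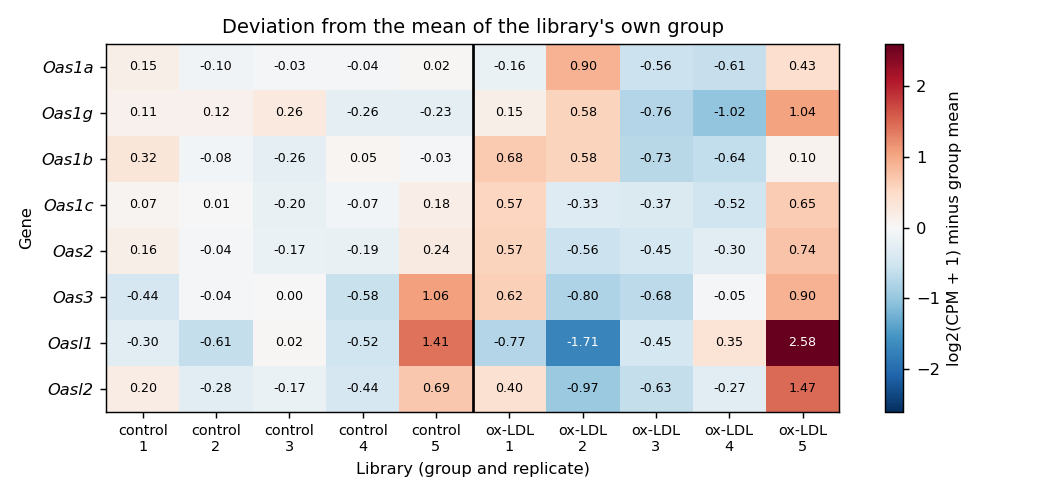
Deviation of each Oas family gene from the mean of the library's own group on the log2(CPM + 1) scale, with blue below and red above the mean; libraries 1 to 5 of control and of ox-LDL are columns. Ox-LDL replicate 5 is above its group mean in all 8 genes and replicate 3 below in all 8, and ox-LDL replicate 2 ranges from −1.71 (Oasl1) to 0.90 (Oas1a).

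Genes with the most similar pattern were sought by the Pearson correlation of log2(CPM + 1) with the mean of the 8 members over the 10 libraries, among 7633 genes with a mean of at least 10 CPM. The 5 highest were Trim30d (0.991), Dhx58 (0.990), Ifit2 (0.985), Ifit3 (0.985) and Ifit1 (0.985). With group means removed their correlations were 0.97, 0.96, 0.94, 0.92 and 0.96. Dhx58 encodes LGP2, a receptor of double-stranded RNA, and Ifit1, Ifit2 and Ifit3 are interferon-stimulated genes whose proteins act on viral RNA. The log2 fold changes ranged from 1.61 ± 0.29 for Trim30d to 6.11 ± 0.80 for Ifit2. The group difference itself contributes to a correlation over both groups.

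The other Oas1 genes of the cluster were nearly silent. Oas1d, Oas1e, Oas1f and Oas1h each had a row, with at most 1 count in any of the 10 libraries, and were not tested. Among the Oas1 genes, those upregulated were Oas1a and Oas1g.

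Genes that act on 2-5A signalling downstream of the enzymes did not pass the threshold with all libraries. Abce1 was first described as an inhibitor of this pathway, and the products of Pde12 and Akap7 can degrade 2-5A. With all libraries none of these 3 genes passed, in either direction, in edgeR, DESeq2 or limma-voom. Over all genes tested, 14.7% passed in edgeR in either direction, so a count of 0 of 3 is near the share of all genes. In edgeR 1 of the 3, Abce1, had an unadjusted p below 0.05. The mean CPM of Abce1 was 74.8 ± 7.53 without and 98.6 ± 17.9 with treatment, with ranges that overlapped (64.3 to 83.2 and 77.1 to 121 CPM). Its log2 fold change was 0.40 ± 0.18 (adjusted p = 0.115, edgeR). Pde12 had a log2 fold change of −0.13 ± 0.19 (adjusted p = 0.668) and Akap7 of −0.32 ± 0.30 (adjusted p = 0.478). Without ox-LDL replicates 2 and 5 Akap7 was called lower (−0.96, adjusted p = 0.00441, edgeR).

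Among genes that carry the interferon signal to the family or feed back on it, 12 are described and 11 were tested. Of these, 6 were upregulated and none was called lower, where 9.4% and 5.35% of all genes tested were. The median log2 fold change was 1.58. Upregulated were the transcription factors Stat2 (2.10 ± 0.30), Irf7 (4.54 ± 0.70) and Irf1 (4.70 ± 0.41), the receptor chain Ifnar2 (1.58 ± 0.33), and the feedback inhibitors Usp18 (2.17 ± 0.48) and Socs1 (5.12 ± 0.80), all as log2 fold changes. Irf7 was at 17.9, 8.39, 12.3, 11.5 and 66.3 CPM in control replicates 1 to 5 and at 939, 472, 209.6, 250.4 and 845 CPM in ox-LDL replicates 1 to 5. Irf9, the DNA-binding part of ISGF3, narrowly missed the threshold (1.00 ± 0.25, adjusted p = 0.0117, edgeR) and passed it without ox-LDL replicate 4 (1.12, adjusted p = 0.00848). Jak1 had a log2 fold change of 0.81 (adjusted p = 0.0298), and 0.91 without ox-LDL replicate 2 (adjusted p = 0.00363). Ifnar1, Tyk2 and Irf3 had adjusted p-values of 0.617, 0.684 and 0.487.

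Some of these calls were not stable. The count of 6 was 8 in DESeq2, 5 in limma-voom, with library size alone or with a replicate block, and 4 to 7 on leaving out 1 library. The call of Usp18 was lost on leaving out any 1 of control replicates 1 to 4 or ox-LDL replicates 1 or 5 (log2 fold change 1.83 to 2.20, adjusted p 0.0135 to 0.0191). That of Ifnar2 was lost without any 1 control library or without ox-LDL replicate 5 (1.45 to 1.65, adjusted p 0.0107 to 0.0159). Ifnb1, the interferon-β gene itself, had 0 counts in all 5 control libraries and 2, 1, 1, 0 and 6 counts in ox-LDL replicates 1 to 5, too few to test at this depth. The 6 counts were in replicate 5, the library with the highest Oasl1, Oasl2, Oas3, Oas2 and Oas1g. Replicate 4, with 0 counts, had the next highest Oasl1 (166 CPM). A relation between Ifnb1 and these levels was not tested.

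The median log2 fold change of 10 sensors of nucleic acid and their partners was 1.11. None was called lower (5.35% of all genes tested) and 4 were upregulated (9.4%). These were the Z-nucleic acid sensor Zbp1 (5.41 ± 0.51), Dhx58 (2.04 ± 0.35), Ifih1 (1.33 ± 0.27), which encodes the RNA receptor MDA5, and the RNA-editing enzyme Adar (1.11 ± 0.24). Eif2ak2, which encodes the double-stranded RNA-activated kinase PKR, had a log2 fold change of 0.69 ± 0.21 (adjusted p = 0.0304, edgeR), and Ddx58, which encodes RIG-I, one of 1.11 ± 0.33 (adjusted p = 0.0278). Ddx58 passed without ox-LDL replicate 2 (1.22, adjusted p = 0.00823). Cgas, the sensor of cytosolic DNA, had a log2 fold change of 1.14 ± 0.37 (adjusted p = 0.0403, edgeR) and Mavs, the adaptor of RIG-I and MDA5, one of 0.68 ± 0.29 (adjusted p = 0.104). Cgas passed without control replicate 5 and ox-LDL replicate 2 (1.46, adjusted p = 0.00849). The calls of Adar and Ifih1 were both lost without control replicate 1 (1.03 and 1.29, adjusted p 0.0153 and 0.0114) or control replicate 4 (1.05 and 1.25, adjusted p 0.0163 and 0.0119), which lowered the count of 4 to 2. Adar was also lost without control replicate 2, control replicate 3 or ox-LDL replicate 4 (1.06 to 1.10, adjusted p 0.0128 to 0.0146). With library size alone Adar and Ifih1 were lost (0.9549 and 1.1975, adjusted p 0.0629 and 0.0374, edgeR), which left a count of 2. With limma on log2(FPKM + 1) they were lost too (0.8023 and 0.9774, adjusted p 0.0838 and 0.0611), again leaving 2. Without its filter the adjusted p was 0.175 and 0.147, and the count was 1. Of 26 alternative settings, Adar kept its call in 17 and Ifih1 in 19.

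Prkra, which encodes the PKR activator PACT, was lower in every ox-LDL library (12.5 to 31.1 CPM) than in any control library (31.5 to 65.4 CPM). Its log2 fold change was −1.13 ± 0.29 (adjusted p = 0.0139, edgeR). The call was made by DESeq2 (−1.14, adjusted p = 0.00264), by limma-voom (−1.19, adjusted p = 0.00776) and by edgeR without ox-LDL replicate 2 (−1.43, adjusted p = 0.00116). Tlr3, the endosomal receptor of double-stranded RNA, had a log2 fold change of −0.82 ± 0.38 (adjusted p = 0.135), and −1.37 without ox-LDL replicate 1 (adjusted p = 0.00221).

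Of 8 genes that lead from TLR4 to interferon, 4 were upregulated (9.4% of all genes tested), with a median log2 fold change of 1.00. They were the co-receptor Cd14 (2.24 ± 0.36), the adaptor Ticam2 (1.00 ± 0.16), Traf3 (1.54 ± 0.27) and the kinase Tbk1 (1.01 ± 0.17). With library size alone 1 of the 4 calls was made. Tlr4 itself had a log2 fold change of −0.96 ± 0.30 (adjusted p = 0.0346, edgeR), which passed in DESeq2 (−0.997, adjusted p = 0.00528) and without ox-LDL replicate 1 (−1.33, adjusted p = 0.00134). Ticam1, the gene of TRIF, had one of 1.12 ± 0.33 (adjusted p = 0.0253), and 1.29 without ox-LDL replicate 2 (adjusted p = 0.000671). Ly96 and Ikbke had adjusted p-values of 0.401 and 0.314, and without ox-LDL replicate 2 Ly96 was called lower (−1.18, adjusted p = 0.00789).

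**Figure D5:**
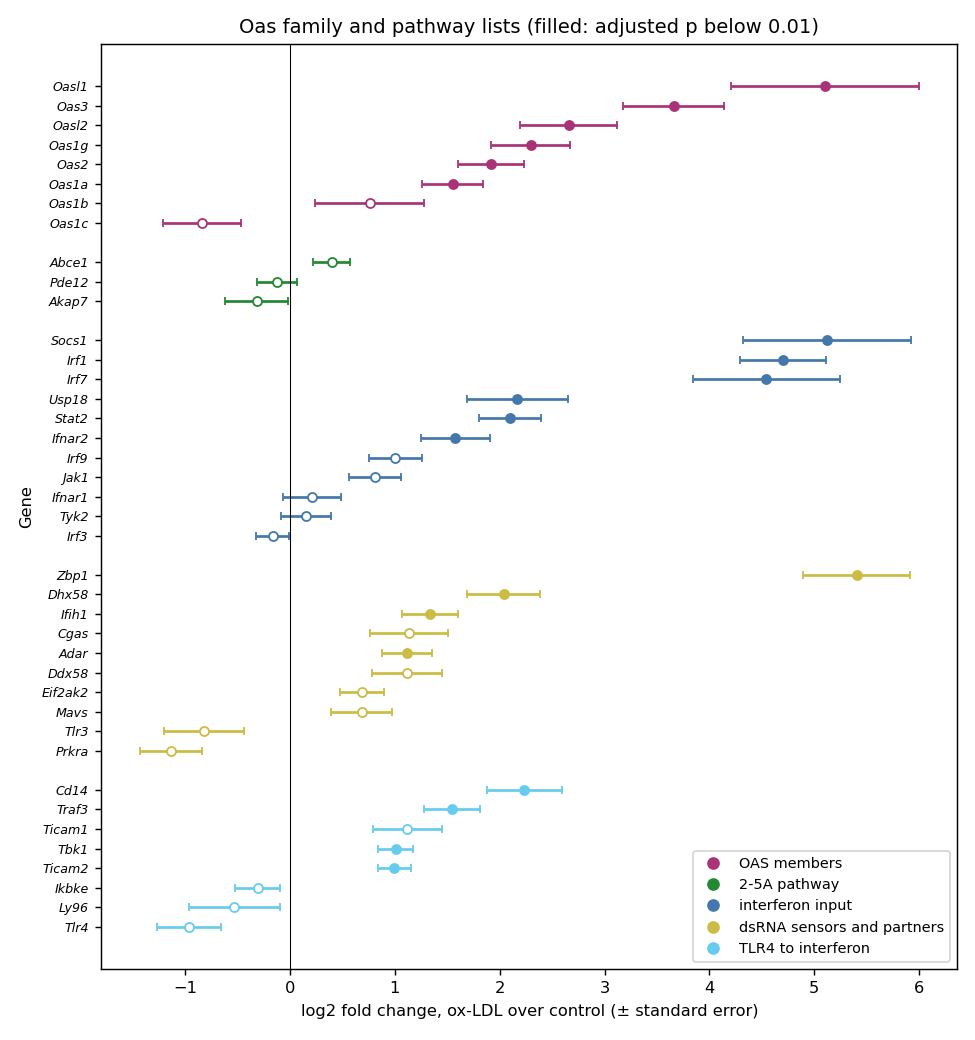
Log2 fold change ± SE (edgeR), ox-LDL over control, of the 8 Oas family genes and of the 32 tested genes described of 4 pathway lists; filled circles have an adjusted p below 0.01. Filled circles are 6 of 8 in the family, 0 of 3 in the 2-5A pathway, 6 of 11 in the interferon input, 4 of 10 among the sensors and 4 of 8 from TLR4 to interferon, all on the right of 0. Of all genes tested, 9.4% were called higher and 5.35% lower.

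The summed levels of markers of other cells differed between the groups for some cell types and overlapped for others. Beside the calls below, 9.4% of all genes tested were called higher and 5.35% lower, and 9.11% were lower without overlap. By library-size CPM, the 5 plasmacytoid dendritic cell markers summed to 89.7 to 131 in control and 373 to 1182 in ox-LDL libraries; 2 were tested and 1 was called higher, Bst2 (log2 fold change 3.06, adjusted p = 0.00118, edgeR), itself an interferon-stimulated gene. The other tested, Tcf4, had a log2 fold change of −0.54 (adjusted p = 0.0466, edgeR) with every ox-LDL library below every control library. Siglech had at most 6 counts and Klk1 at most 5 in any library. Ccr9, also untested, reached 19 counts. After treatment its mean TMM-normalized level was higher, 0.63 against 0.15 CPM, although the ranges overlapped (treated 0 to 1.075, untreated 0.0515 to 0.2606). The 5 neutrophil markers, 4 of them with a row, summed to 6.41 to 13.3 CPM in control and 13.1 to 90.3 CPM in ox-LDL libraries, through S100a8, the 1 that was tested and called higher. Its log2 fold change was 2.76 (adjusted p = 0.0031, edgeR), with ranges that overlapped. S100a9, which marks mature neutrophils together with S100a8, had at most 8 counts in any library, and Mpo and Elane, which are transcribed mainly in neutrophil precursors, at most 2 and 1. The 4 conventional dendritic cell markers summed to 0.760 to 1.21 and 2.23 to 4.05 CPM, with 1 of 2 tested called higher. The 5 eosinophil and mast cell markers, 4 with a row, summed to 2.91 to 7.82 and 0.366 to 1.85 CPM, with 1 of 2 tested called lower. B cell sums (1.14 to 2.86 and 0.660 to 3.27 CPM), T cell sums (0 to 0.802 and 0.213 to 0.571 CPM) and mesothelial sums (0.740 to 3.99 and 1.02 to 3.50 CPM) overlapped between the groups. The part of other cells in the levels of the Oas family was not tested.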

How the data were processed

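The gene counts and FPKM values of 10 libraries, 5 control and 5 ox-LDL, were analysed, grouped by the sample labels. The authors sequenced on the BGISEQ-500 platform and, by the submitters' processing notes, used FastQC, HISAT2 2.0.5, SAMtools 1.4 and StringTie 1.3.3.13 with mm9. The authors deposited estimated counts (13.6% of the entries carried decimals), and the counting step and its use of strand are not given in the sources used here. A further deposited value for each gene, in a unit left unnamed, was treated as FPKM because count, value and library total implied nearly the same length in every library.

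Of 39488 rows, 9788 circular RNAs were left out; 22818 of 23382 NCBI identifiers were paired with a symbol through a RefSeq table of GRCm38.p6, and 6318 other rows have no symbol. No column was left unmapped (0). Estimated counts were rounded and tested with edgeR 4.0.16 (filterByExpr by group, TMM, robust quasi-likelihood test, R 4.3.3), with Benjamini-Hochberg adjustment over 12654 genes and a threshold of 0.01; the biological coefficient of variation was 37.3%. The test was checked on simulated data. SE is the standard error of the log2 fold change. Alternatives were DESeq2 1.42.0, limma-voom and limma 3.58.1 on log2(FPKM + 1) or log2(FPKM + 0.1) for genes with at least 1 FPKM in 5 libraries, upper-quartile scaling, library size alone, other filters, a replicate block, removal of each library's length trend, and each library left out. Summing Oas1a with Oas1g, leaving out ox-LDL replicates 2 and 5, and leaving out control replicate 5 with the length trend removed were chosen after seeing the data.

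Replicate numbers are shared by the groups, and whether they mark pairs is not given in the sources used here. The correlations of same-numbered deviations were −0.04, −0.42, 0.51, −0.38 and 0.42. These deviations also carry each library's length trend, so the correlations cannot decide whether the libraries are paired. No pair of libraries of a group agreed within sampling noise (lowest chi-square per gene 10.4).

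The members and lists were chosen with earlier results of these data known. Named genes were the 8 members, the genes of the pathway and marker lists, and the 5 genes most alike in pattern. A few other genes considered for the lists are not reported here and enter no list count. Coordinates are from GENCODE on NCBIM37, and promoter windows from RefSeq (GRCm38.p6), matched exactly to NCBIM37.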

Additional observations from a re-analysis of the deposited data

Results flagged for a closer look

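In 4 of 18 groups of 5 libraries, the CPM of each member and the summed FPKM in each condition, 1 library lay so far out that its gap to the nearest other library exceeded 0.71 of the group's range (Dixon's 95% limit). For normally distributed values, chance gives about 1 in 20, or 0.9 of 18. The limit was applied to CPM and FPKM and not to their log2 values, on which a high library lies less far out. The excess over 0.9 may therefore come from the scale, which was not tested. Control replicate 5 was the highest control for Oas3, at 8.38 CPM (gap 0.765 of the range), and for Oasl1, at 16.6 CPM (0.820). Ox-LDL replicate 5 was the highest ox-LDL library for Oasl1, at 783 CPM (0.830), and for the summed FPKM of the family, at 692 FPKM (0.715). The groups are not independent, since the same libraries and an overlapping set of genes enter them.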

How the results depend on the processing

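The count of 6 upregulated members was 6 under most of the 26 alternative settings, 5 without a filter on low counts and with limma on log2(FPKM + 1) or log2(FPKM + 0.1), where 6 of the 8 were tested, and 4 with log2(FPKM + 1) unfiltered. The losses were Oasl1 without a count filter (5.05, adjusted p = 0.0161) and, with unfiltered FPKM, Oas2 (log2 fold change 0.99, adjusted p = 0.0441) and Oasl2 (2.17, adjusted p = 0.0191). No member reversed. With limma on log2(FPKM + 1) the log2 fold change of Oas3 was 2.45 and of Oasl1 3.95, and with log2(FPKM + 0.1) they were 3.33 and 4.34; the test, filter and scaling differ there too. The median over all genes was 0.27 without a filter and −0.18 on log2(FPKM + 0.1), against 0.10.

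The 1189 genes called higher and 677 lower became 704 higher with library size alone, 555 with log2(FPKM + 1), 543 with log2(FPKM + 0.1), 472 with log2(FPKM + 1) unfiltered (with 750, 700 and 555 lower by FPKM), 2045 and 1320 at an adjusted p below 0.05, and 605 and 244 with an absolute log2 fold change above 2. Lower calls were 1244 in DESeq2, 1224 with the length trend removed and 1161 with that and control replicate 5 left out. Without control replicate 5 and ox-LDL replicate 2 there were 1843 higher and 1483 lower, and without ox-LDL replicates 2 and 5 1797 and 1431. Leaving out 1 library gave 826 to 1755 higher and 436 to 1502 lower. Of the pathway genes, 14 were called higher, 8 with library size alone or with filtered FPKM, 6 with unfiltered FPKM and 10 to 17 on leaving out 1 library. None was called lower, against 1 with limma-voom, upper-quartile scaling, library size alone, no filter or FPKM, and 2 with DESeq2, with the length trend removed (also without control replicate 5), without control replicate 5 and ox-LDL replicate 2, without ox-LDL replicates 2 and 5, and 0 to 2 on leaving out 1 library. The cause was not tested.

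With the replicate block, 6 members were called (log2 fold change 1.42 for Oas1a, adjusted p = 0.00941; 4.56 for Oasl1, adjusted p = 0.000147) and 12 pathway genes; 1 of 5 control libraries matched best the ox-LDL library of its own number. Estimates near 0 changed sign for Ifnar1 (−0.087 with log2(FPKM + 1), filtered or not, −0.096 with log2(FPKM + 0.1), −0.055 without ox-LDL replicates 2 and 5, and −0.121 to 0.302 on leaving out 1 library), Tyk2 (−0.011 with log2(FPKM + 1), filtered or not, −0.034 with log2(FPKM + 0.1), −0.023 with the length trend removed) and Pde12 (0.017 without control replicate 5 and ox-LDL replicate 2).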
